A study of Mus musculus with 8 samples.

Results

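Heparan sulfate (HS) polymerases, sulfotransferases and sulfatases were examined in the limbal region and the cornea of the mouse. The genes were taken by symbol and all 10 were found among the 23420 named genes of the deposited table: the chain polymerases Ext1 and Ext2, the N-deacetylase/N-sulfotransferases Ndst1 and Ndst2, the sulfotransferases Hs2st1, Hs3st1, Hs6st1 and Hs6st2, and the extracellular sulfatases Sulf1 and Sulf2. Limbal rims, which border the cornea on the side of the sclera, and corneal buttons, the cornea inside that ring, were dissected from wild type adult C57BL/6J mice of one age, pooled by tissue, and sequenced as stranded total RNA. No treatment, transgene or deletion was used. The labels list 8 samples, 4 per tissue, numbered L001 to L004 as lanes of a sequencer are, but the table is built from 1 library per tissue. Differences between the tissues therefore have no replicate check, the spread between animals is unknown, and the 95% confidence intervals (CI) given here cover counting error only.

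HS is a linear sugar chain of glucuronic acid and glucosamine that is built in the Golgi on core proteins such as syndecans, glypicans and perlecan. Polymerases extend the chain, and sulfotransferases then add sulfate at the N, 2-O, 6-O and 3-O positions, and the resulting pattern of charges sets which growth factors, morphogens and protease inhibitors the chain holds. After secretion, sulfatases at the cell surface take 6-O-sulfate groups off again. In the cornea, HS is carried by the epithelium, its basement membrane and the stroma. The study asked, among other matrix components, whether the enzymes that make HS differ between the limbal niche of the epithelial stem cells and the cornea. The paper reported no striking change in genes of HS biosynthesis and no differential expression of HS proteoglycans. It names no fold threshold for this, so the fold rule used below is not that of the paper.

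The polymerase genes Ext1 and Ext2 were slightly higher in the limbus, at 1.28-fold and 1.33-fold, and Hs3st1, Hs6st2, Sulf1 and Sulf2 more so. Sulf2 was 4.20-fold, Hs6st2 3.97-fold, Hs3st1 3.94-fold and Sulf1 1.73-fold higher there. The other 6 genes differed by 1.07-fold to 1.33-fold. A difference of at least 1.5-fold was used as the call, since no test across replicates could be made. By this rule 4 of 10 genes were limbal and 0 corneal. Of all 15572 genes with more than 3 reads in a library, 27.3% were at least 1.5-fold higher in the limbus and 20.5% at least 1.5-fold higher in the cornea. With total reads for scaling, 5 of 10 genes were limbal, Ext2 among them, and 0 corneal, where 33.5% and 13.8% of all genes were. The counting interval lay above 0 for 7 of the 10 genes and below 0 for 3, and for 35.5% and 36.7% of all genes. At 2-fold, 3 of 10 genes were called in the limbus, where 20.8% of all genes were, and 0 in the cornea, where 8.84% were. Their median on the log2 scale was 0.39, against 0.01 for all genes tested. With 10 genes and 1 library per tissue, these shares are a description and are not particular to the group. The reads of all 10 genes together were 9085 corneal and 8985 limbal, before any scaling for depth, and Hs6st1 and Ndst1 made up most of them. Normalized, the sums were 8788 for the cornea and 9288 for the limbus. Their log2 ratio was 0.08, with a counting interval of 0.04 to 0.12 that lay above 0. Scaling to total reads adds 0.21 to this log2 ratio. Reads were recovered from the deposited mean, fold change and standard error, and only for Hs6st2 does the mean alone fix the reads. For the other 9 genes the ratio rests on the deposited fold change, and with the next best pair of read numbers, which met the deposited values far less closely, Sulf2 would be at a log2 ratio of -0.43 and Hs3st1 at 0.18.

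Reads on named genes numbered 26104317 in the cornea library and 21182025 in the limbus library, and every ratio is limbus over cornea after division by the size factors contained in the deposited means. Which library is the cornea was set from the data, as the side of the deposited fold change on which Krt12 and Kera were higher. Neither gene is therefore a check of the tissues. Of 6 corneal epithelial genes, 5 were at least 1.5-fold higher in the cornea, among them Krt12, with 1137735 corneal and 233324 limbal reads. Of 6 limbal and conjunctival epithelial genes, 5 had more than 3 reads in a library, and all 5 were at least 1.5-fold higher in the limbus. Among them, Krt15 had 37738 corneal and 353826 limbal reads, and Krt4 had 2138 and 71498. Summed normalized reads of this list were 83957 for the cornea and 651647 for the limbus. The part of this epithelium in the differences described here was not tested. Markers of other cell types differed too. All 6 blood vessel endothelial genes, all 5 mural cell genes, all 5 skeletal muscle genes, all 5 pigment cell genes, 4 of 5 Schwann cell genes, 5 of 6 leukocyte genes and 4 of 6 genes of scleral and limbal fibroblasts were at least 1.5-fold higher in the limbus. Summed normalized reads were 234 for the cornea and 2687 for the limbus in the blood vessel list, 341 and 2523 for the mural cell list, 77.4 and 9975 for the muscle list, 306 and 1644 for the pigment cell list, 4253 and 7060 for the Schwann cell list, 6319 and 10438 for the leukocyte list, and 3527 and 4124 for the fibroblast list. In the cornea the last 3 sums rest mainly on 1 gene each, namely Mbp, Itgam and Dpt, and Dpt was lower in the limbus, so that the median log2 ratios of these lists were larger than their sums show, at 4.14, 1.07 and 3.75. No gene of these 7 lists was at 0 in either library. Their part in the differences described here was not tested, and in tissue RNA fewer cells of a type and less RNA per cell cannot be told apart. The 5 corneal endothelial genes, 4 of them past 1.5-fold, summed to 3317 normalized corneal and 8138 normalized limbal reads. Of 5 keratocyte genes, 1 was past 1.5-fold in the limbus and 2 in the cornea.

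Levels between genes were compared as normalized reads per kb of exon. Hs6st1 was by far the most abundant enzyme in both tissues, at 672 normalized corneal and 630 normalized limbal reads per kb, above 90.4% of the expressed genes in each. Ndst1 followed with 253 and 215, then Ndst2 with 157 and 182 and Ext2 with 130 and 174. Hs6st2 was the lowest in both, at 0.867 (cornea) and 3.44 (limbus). With these lengths the order of the upper 4 genes was the same in both tissues. With the length of the longest transcript it was not, since Ext2 then had 257 in the cornea, below Ndst1 with 324, and 342 in the limbus, above Ndst1 with 274. Hs3st1 ranked 7 of 10 in the cornea, at 36.0, and 5 of 10 in the limbus, at 142, while Hs2st1 ranked 5 with 59.3 and 7 with 48.6. With exon lengths, neighbours in this order differed beyond counting error except Hs2st1 and Ext1 in the cornea (ratio 1.04, 95% CI 0.919 to 1.19), and Ndst2 and Ext2 (1.05, 95% CI 0.957 to 1.15) and Sulf2 and Sulf1 (1.16, 95% CI 0.978 to 1.38) in the limbus.

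**Figure D1:**
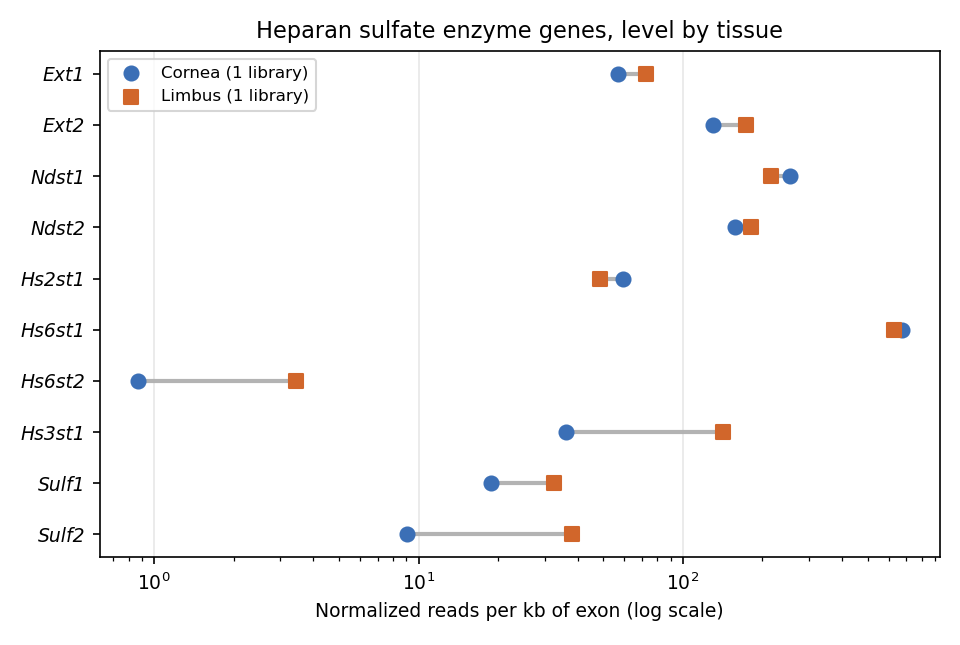
Normalized reads per kb of exon (horizontal log axis) of the 10 HS enzyme genes, with a circle for the cornea library and a square for the limbus library. Hs6st1 is highest in both tissues at 672 and 630, and the wide gaps are those of Hs6st2, Hs3st1, Sulf1 and Sulf2.

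Ext1 and Ext2 encode the glycosyltransferases that form the HS polymerase complex in the Golgi. In GRCm38, Ext1 lies on chromosome 15 from 53064038 to 53346159 and Ext2 on chromosome 2 from 93661028 to 93822568, both on the minus strand. Ext1 had 474 corneal and 568 limbal reads, at a log2 ratio of 0.36 (95% CI 0.18 to 0.54). For Ext2, 987 corneal and 1230 limbal reads gave a log2 ratio of 0.41 (95% CI 0.29 to 0.54). Both intervals lay above 0, and the polymerase genes differed by nearly the same amount. Ext2 took 69.7% (95% CI 67.3 to 72.0) of the reads per kb of the pair in the cornea and 70.5% (95% CI 68.3 to 72.5) in the limbus. The ratio of Ext2 to Ext1 differed between the libraries by 0.06 on the log2 scale (95% CI -0.16 to 0.27), so a difference in this balance was not detectable at this depth. Alx4, which overlaps Ext2 on the opposite strand without sharing exon sequence, had 5 corneal and 190 limbal reads. Both polymerase genes moved further from 0 when the libraries were scaled to their total reads, to 0.56 for Ext1 and 0.62 for Ext2, and Ext2 was then past 1.5-fold.

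The EXT-like genes, which encode related transferases for chain initiation and extension, did not share one direction. Extl3, which adds the first glucosamine of the HS chain, had 1301 corneal and 1207 limbal reads, at a log2 ratio of -0.01 (95% CI -0.13 to 0.10) that turned positive with total reads. Extl2 was 1.55-fold higher in the cornea from 383 and 231 reads, but its log2 ratio of -0.63 became -0.43 with total reads, short of 1.5-fold. Extl1 had 1 corneal and 10 limbal reads, at a log2 ratio of 3.42 and an interval of 0.60 to 8.86.

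Ndst1 and Ndst2 encode the enzymes that remove acetyl groups from glucosamine and replace them with sulfate, the step on which the later sulfations depend. Ndst1 lies on chromosome 18 from 60684494 to 60748650 and Ndst2 on chromosome 14 from 20723730 to 20734562. Ndst1 had 2168 corneal and 1719 limbal reads, at a log2 ratio of -0.24 (95% CI -0.33 to -0.15). Ndst2 had 737 and 799 reads, a log2 ratio of 0.21 (95% CI 0.07 to 0.36). The corneal side of Ndst1 depended on the scaling, since with total reads its log2 ratio was -0.033 with an interval that includes 0. The balance within the pair does not depend on the scaling. Ndst2 took 38.2% (95% CI 36.3 to 40.2) of the reads per kb of the pair in the cornea and 45.8% (95% CI 43.7 to 47.9) in the limbus, and its ratio to Ndst1 was 1.37-fold higher in the limbus, beyond counting error. Ndst1 remained the more abundant of the pair in both tissues. Ndst3 rested on 1 corneal and 8 limbal reads, and Ndst4 was listed at 0, with no read in either library. At this depth that does not show its absence. Rps14, a ribosomal protein gene with 24094 and 24241 reads, overlaps Ndst1 on the opposite strand, with no exon in common.

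Hs2st1 (chromosome 3, 144429706 to 144570181) encodes the single 2-O-sulfotransferase of HS, which acts on uronic acid. It had 503 corneal and 386 limbal reads, at a log2 ratio of -0.29 (95% CI -0.48 to -0.09). With total reads the value was -0.081 and the interval included 0. Glce encodes the epimerase that makes the iduronic acid on which Hs2st1 acts. Glce had 1022 corneal and 463 limbal reads and was 2.07-fold higher in the cornea, at a log2 ratio of -1.05 (95% CI -1.21 to -0.89). The interval of Glce did not reach that of Hs2st1.

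Hs6st1 and Hs6st2 encode 6-O-sulfotransferases, which sulfate glucosamine and so make the groups that Sulf1 and Sulf2 remove. Hs6st1 lies on chromosome 1 from 36068400 to 36106446, and Hs6st2 on the X chromosome from 51387212 to 51681856. Hs6st1 had 3851 corneal and 3378 limbal reads, at a log2 ratio of -0.09 (95% CI -0.16 to -0.03) whose sign turned with total reads, where it was 0.11. Hs6st2 had 7 corneal and 26 limbal reads, at a log2 ratio of 1.99 and a wide interval of 0.75 to 3.44. The limbal level of Hs6st2 was higher beyond counting error, but it took 0.129% (95% CI 0.0518 to 0.265) of the reads per kb of the pair in the cornea and 0.543% (95% CI 0.355 to 0.796) in the limbus. Hs6st1 thus made up nearly all 6-O-sulfotransferase reads per kb in either tissue. Hs6st3 was listed at 0. Gm37335, an annotated RNA on the opposite strand, shares exon sequence with Hs6st1, and whether reads were counted by strand is not given in the sources used here.

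Hs3st1 (chromosome 5, 39613935 to 39755475) encodes a 3-O-sulfotransferase, the enzyme known for making the antithrombin-binding site of HS and heparin. It had 83 corneal and 306 limbal reads, at a log2 ratio of 1.98 (95% CI 1.62 to 2.35). Of all genes tested, 88.4% had a lower ratio. Its relatives did not share one direction. Hs3st3b1, the 3-O-sulfotransferase gene with the most reads, had 1244 corneal and 855 limbal reads, at a log2 ratio of -0.45 (95% CI -0.57 to -0.32). Hs3st3a1 was read 5 and 80 times, with a ratio on the log2 scale of 4.10 (95% CI 2.81 to 5.76), the highest among the sulfotransferase genes examined. For Hs3st6, 8 and 26 reads gave 1.80 (95% CI 0.61 to 3.15), and for Hs3st5, 18 and 7 reads gave -1.27 with an interval from -2.77 to 0.06. Hs3st2 had 0 corneal and 1 limbal reads, and Hs3st4 was listed at 0. Between Hs3st1 and Hs3st3b1, a pair chosen after the values were seen, Hs3st1 took 12.8% (95% CI 10.4 to 15.5) of the reads per kb in the cornea and 44.1% (95% CI 40.8 to 47.3) in the limbus.

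Sulf1 and Sulf2 encode the endosulfatases that remove 6-O-sulfate from finished HS chains outside the cell. Sulf1 lies on chromosome 1 from 12692277 to 12861192 and Sulf2 on chromosome 2 from 166073089 to 166155663. Sulf1 had 220 corneal and 357 limbal reads, at a log2 ratio of 0.79 (95% CI 0.55 to 1.04). Sulf2 had 55 corneal and 216 limbal reads, at a log2 ratio of 2.07 (95% CI 1.64 to 2.52), the highest of the 10 genes. The intervals of the pair did not overlap, and the ratio of Sulf2 to Sulf1 was 2.42-fold higher in the limbus. Sulf2 took 32.5% (95% CI 26.0 to 39.4) of the reads per kb of the pair in the cornea and 53.8% (95% CI 49.5 to 58.0) in the limbus. Which gene of the pair was the more abundant in the limbus depended on the gene length used, since with the length of the longest transcript Sulf2 took 42.5%. Ncoa3 on the opposite strand shares exon sequence with Sulf2 and went the other way, with 2270 corneal and 1693 limbal reads. The sulfatase genes together had 275 corneal and 573 limbal reads, at a log2 ratio of 1.15 (95% CI 0.94 to 1.37), while the 6-O-sulfotransferase genes together had 3858 and 3404. Per kb of exon, 6-O-sulfotransferase reads outnumbered sulfatase reads 24.1-fold in the cornea and 8.96-fold in the limbus. Hpse, which encodes the heparanase that cuts HS chains, was read 429 and 336 times, with a ratio on the log2 scale of -0.26 (95% CI -0.47 to -0.05). Hpse2 was listed at 0.

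**Figure D2:**
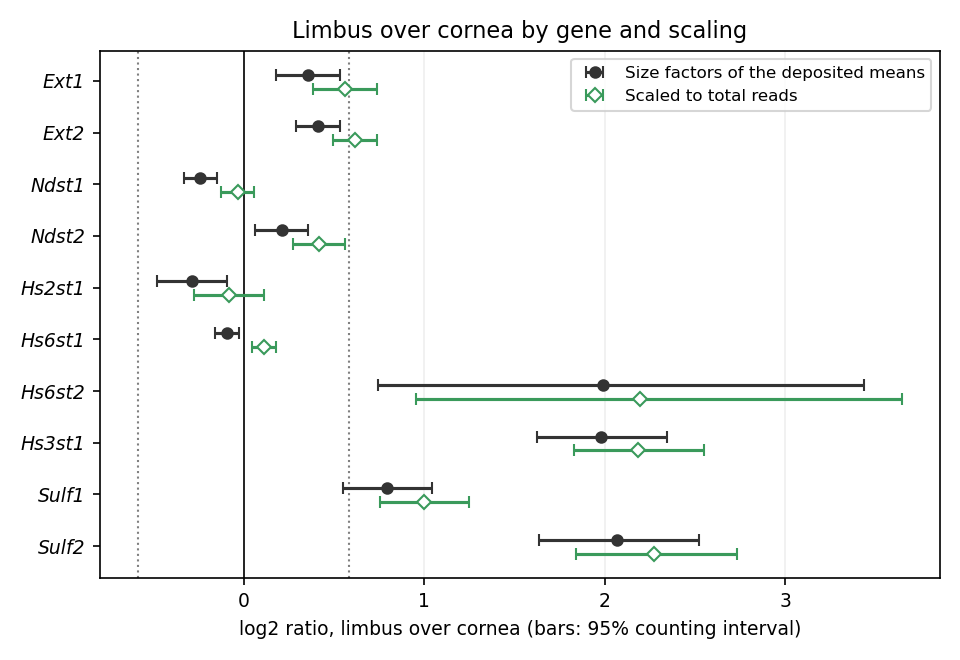
Log2 ratio of limbus over cornea (horizontal axis) for each gene, with circles for the size factors of the deposited means, diamonds for scaling to total reads, bars for the 95% counting interval and dotted lines at 1.5-fold. Hs6st2, Hs3st1, Sulf1 and Sulf2 lie right of the dotted line under both scalings, Ext2 only with total reads, and Hs6st1 changes side.

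**Figure D3:**
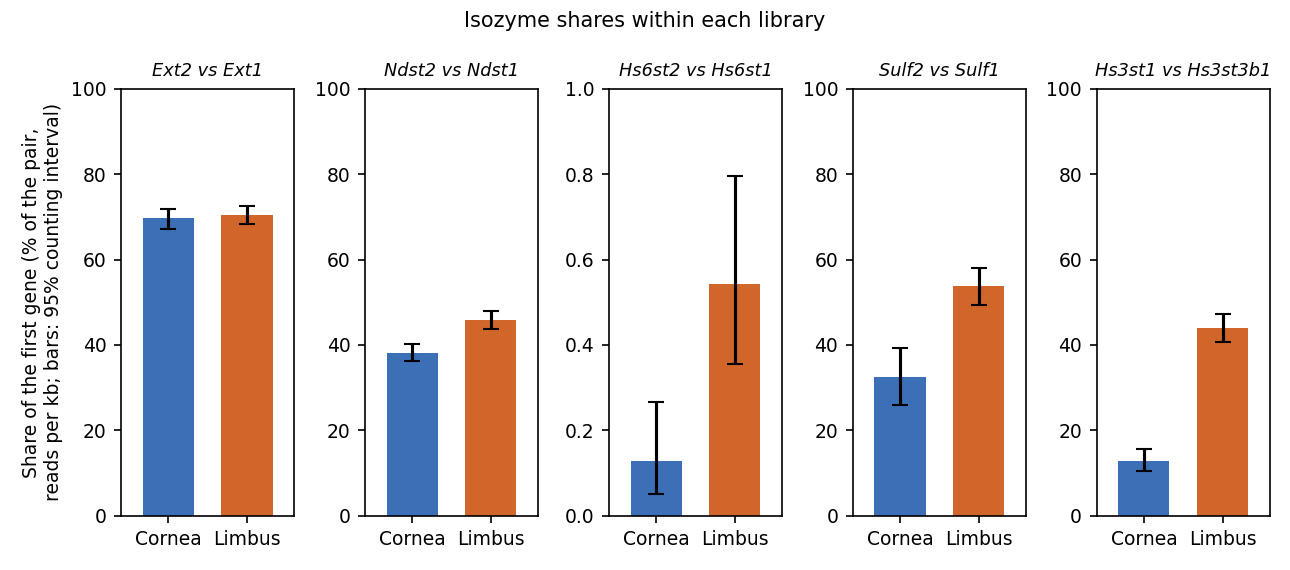
Share of the first named gene in the reads per kb of each pair (vertical axis, percent) in the cornea and limbus libraries, with 95% counting intervals. The share of Ext2 is nearly equal at 69.7% and 70.5%, the other 4 shares are higher in the limbus, and the axis of Hs6st2 ends at 1%.

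Since Hs3st1 and Sulf2 had similar limbal ratios while Hs6st1 had similar levels in both tissues, the 250 bases before an annotated start of each are shown, from RefSeq, GRCm38.p6. Capitals mark the letters GGGCGG or CCGCCC, the GC box on either strand. The windows are chr5:39644632-39644881 for Hs3st1 (minus strand), chr2:166155684-166155933 for Sulf2 (minus strand) and chr1:36068150-36068399 for Hs6st1 (plus strand).
Hs3st1: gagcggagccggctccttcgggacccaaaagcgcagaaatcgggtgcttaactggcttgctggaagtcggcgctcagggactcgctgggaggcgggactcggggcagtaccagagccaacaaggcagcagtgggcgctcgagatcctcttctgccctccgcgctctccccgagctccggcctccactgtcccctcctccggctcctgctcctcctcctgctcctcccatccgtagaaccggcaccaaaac
Sulf2: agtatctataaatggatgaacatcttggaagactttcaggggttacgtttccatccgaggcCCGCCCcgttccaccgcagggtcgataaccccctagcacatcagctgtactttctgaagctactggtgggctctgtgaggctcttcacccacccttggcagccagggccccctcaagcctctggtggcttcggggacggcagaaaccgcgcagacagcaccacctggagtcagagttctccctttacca
Hs6st1: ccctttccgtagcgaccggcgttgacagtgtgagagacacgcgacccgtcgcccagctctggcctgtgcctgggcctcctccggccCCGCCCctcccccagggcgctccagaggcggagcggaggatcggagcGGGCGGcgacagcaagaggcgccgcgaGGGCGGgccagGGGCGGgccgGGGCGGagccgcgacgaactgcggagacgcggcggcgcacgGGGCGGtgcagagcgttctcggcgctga
The Hs6st1 window held 6 GC boxes and 37 CpG dinucleotides, the Sulf2 window 1 and 10, and the Hs3st1 window 0 and 19. Of the 32851 windows of this length in the RefSeq table, 32.7% held a GC box, 12.4% the TATA box letters TATAAA and 33.8% the CCAAT box letters CCAAT, each on either strand, with a median of 6 CpG. For Sulf2, the window printed is that of the outer of its 2 listed starts, and it held TATAAA and no CCAAT. The window of the inner start of Sulf2 differed from it, with 21 CpG, CCAAT, no TATAAA and 0 GC boxes. The Hs3st1 and Hs6st1 windows held neither TATAAA nor CCAAT. Windows were listed for 7 of the 10 genes, 9 in all since Sulf2 and Hs6st2 have a second listed start. Of the 9, 4 held a GC box, with 6 in Hs6st1, 3 in Ndst2, 1 in Hs2st1 and 1 in the outer Sulf2 window. The Ext2 window and the 2 Hs6st2 windows held 0. A link between these letters and the tissue ratios was not tested. The Hs3st1 window lies inside the GENCODE span of the gene, which on the minus strand begins at 39755475. No window further out was listed for it, so other starts of Hs3st1 may not be covered. These are matches of letters and not binding sites.

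**Figure D4:**
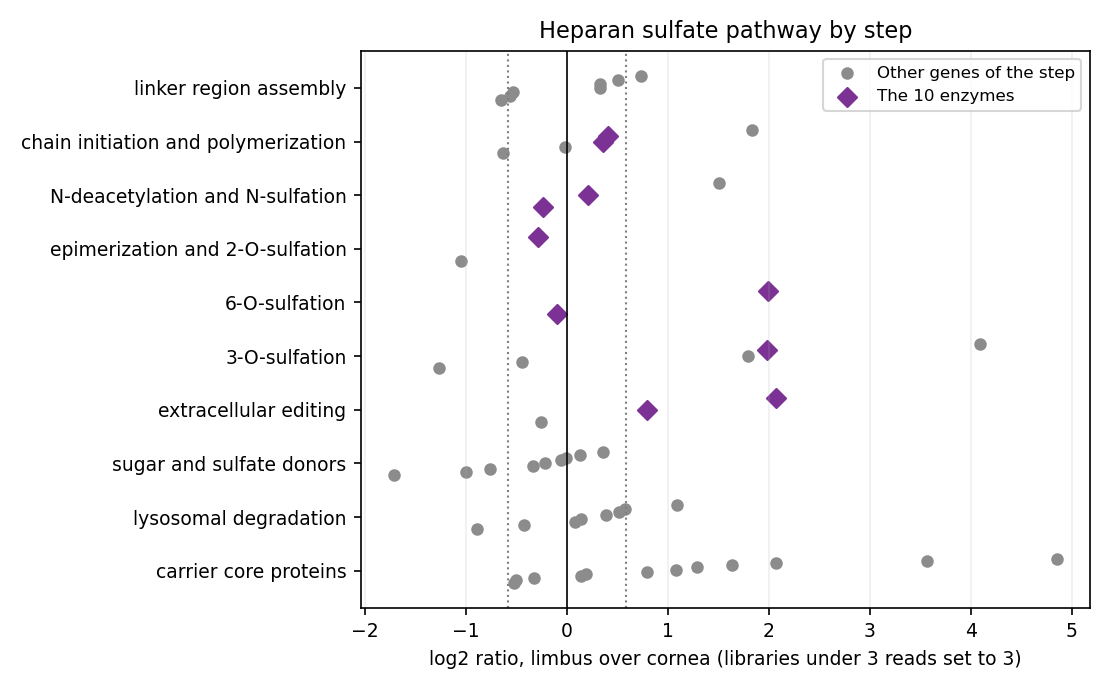
Log2 ratio of limbus over cornea (horizontal axis) of the genes of each HS pathway step with more than 3 reads in a library, with diamonds for the 10 enzymes, circles for the other genes and dotted lines at 1.5-fold. Diamonds of chain polymerization, N-sulfation and 2-O-sulfation lie between the dotted lines, and 4 diamonds of 6-O- and 3-O-sulfation and extracellular editing lie to the right.

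The other genes of the same pathway steps, from chain initiation to extracellular editing, gave no common direction. These 15 genes are not among the 10 and include Glce, Hpse and Hpse2, which are not polymerases, sulfotransferases or sulfatases. Of the 15, 10 had more than 3 reads in a library. By the 1.5-fold rule 4 were limbal (Extl1, Ndst3, Hs3st3a1 and Hs3st6) and 3 corneal (Extl2, Glce and Hs3st5), around a median log2 ratio of -0.13. Of all genes, 27.3% and 20.5% were called in these directions. With total reads Extl2 was no longer called and the median of these genes turned positive, at 0.07. All 4 limbal genes had at most 8 corneal reads.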

How the data were processed

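Total RNA of pooled limbal rims and corneal buttons was sequenced by the authors, who trimmed adaptors and used CLC Genomics Workbench for mapping, with GRCm38 (mm10) as the genome. The paper's methods name the trimmed mean of M-values for scaling. The authors deposited 1 table with, per gene, the mean normalized signal over the libraries, a log2 fold change shrunken towards 0, its standard error, and p-values. The fold change was read as cornea over limbus because Krt12 and Kera, corneal genes, are on its positive side. Every direction given here rests on that reading. The p-values were not used. Of 40904 rows, 23420 name a gene and 17484 do not, and these stayed out of every total. No column holds a value for a numbered sample, and 0 columns of other samples were found.

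Every mean above 0 (17442 genes) is a whole number of reads of 2 libraries in which 109 cornea reads are worth 102 limbus reads (size factors 1.03 and 0.967). For 6143 genes a single pair of read numbers has that mean, and 11299 genes have more than 1. Among these, the pair was taken that gives the deposited fold change and standard error under a shrinkage model with a free dispersion per gene. The deposited fold change and standard error served this step alone and are not reported. Both were met to within 1e-05 in sum for 17439 genes (99.98%), and more than 1 pair met them for 10 genes, none of the 10 enzymes. For the enzymes the next best pair missed by 0.00387 or more. The mean alone fixes the direction of 1 enzyme, Hs6st2, and the ratios of the other 9 rest on the deposited fold change and are not independent of it. On simulated data for this comparison, all 17068 genes were recovered exactly, and 200 of 200 changed genes had their direction. Reads are therefore derived values, not a deposited count table.

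Counting intervals (95%) use the exact Clopper-Pearson method on the share of limbal reads, and those of a ratio of 2 genes are exact conditional intervals of the odds ratio. Reads were amplified and carry no molecular identifier here, so 1 read is not 1 molecule. A library under 3 reads was set to 3 in counts and medians, and no fold was given where both had 3 or fewer. Exon lengths and positions are from GENCODE M21 (GRCm38), and Pxylp1 and Adgre1 were found under older symbols. The design allowed for counts per sample, for which a count test would have been used. The members and lists were chosen with earlier results of these data known. The genes named are the 10 enzymes, and of each pathway list the highest and lowest with at least 50 reads in all, those with 3 reads or fewer in both libraries, and core proteins past 2-fold, and others were named after their values were seen. Alternatives were scaling to total reads, a trimmed mean of M-values (trimming 30% of log ratios and 5% of mean values at each end), a pseudocount of 1, a mean of at least 10, a call at 2-fold or by the counting interval, the next best read pair, and transcript length. Python 3.11.15, numpy 2.4.6, scipy 1.17.1, pandas 2.3.3 and matplotlib 3.10.9 were used.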

Additional observations from a re-analysis of the deposited data

How the results depend on the processing

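Of 211 values under other settings, 170 stayed within the counting interval or within 1.5 times the count, 40 moved further and 1 reversed. The 170 include, for each enzyme, the lowest and highest ratio over the read pairs within 1e-05. These could not move, since each enzyme has 1 such pair. The choice of the read pair mattered most. Only 1 pair per enzyme met the deposited columns within 1e-05, but with the next best pair the log2 ratios would be 1.69 for Ext1, 2.07 for Ext2, -1.25 for Ndst1, 1.05 for Ndst2, -1.01 for Hs2st1, 0.18 for Hs3st1, -0.52 for Hs6st1, 2.14 for Sulf1 and -0.43 for Sulf2, the one reversal. Those pairs missed by 0.00387 to 1.31, and Hs6st2 has no other pair. No gene past 1.5-fold changed sign under any scaling or pseudocount, but this was fixed in advance. The scalings add less than 0.585, the log2 of 1.5, and 1 added to both levels cannot turn a ratio. Scaling to total reads added 0.21 to each log2 ratio, and the trimmed mean of M-values added 0.02. With total reads the log2 ratios were 0.56 for Ext1, 0.62 for Ext2, -0.033 for Ndst1, 0.42 for Ndst2, -0.081 for Hs2st1 and 0.11 for Hs6st1, so that 5 of 10 genes were past 1.5-fold in the limbus and 0 in the cornea, beside 33.5% and 13.8% of all genes. Under that scaling the list medians were 0.56 for chain initiation and polymerization, 0.42 for N-sulfation, -0.46 for epimerization and 2-O-sulfation, -0.013 for donors and 1.14 for core proteins. Counts under that scaling were 2 limbal and 0 corneal for the linker, 2 and 0 for chain initiation, and 4 limbal for lysosomal degradation. With the trimmed mean of M-values the last count was 2, where 27.7% of all genes were limbal. With a mean of at least 10, limbal counts were 0 for chain initiation, 0 for N-sulfation and 2 for the other genes of the enzyme steps. Of all genes with such a mean, 23.8% were limbal by the 1.5-fold rule. With that filter, the medians of chain initiation and of N-sulfation were 0.17 and -0.013. Called by the counting interval in place of a fold, 7 genes were limbal in place of 4, and 3 corneal in place of 0. With the longest transcript as length, the shares in cornea and limbus were 81.1% and 81.7% for Ext2, 36.0% and 43.5% for Ndst2, 23.4% and 42.5% for Sulf2, and 16.3% and 51.0% for Hs3st1, a change that the lengths alone make. No paired analysis was possible because the table carries no value for a numbered sample, and for the same reason no replicate could be left out. Depth limits Hs6st2, with 33 reads in all, more than the other enzymes.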

Other observations

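The other genes of the HS pathway, from lists chosen with earlier results of these data known, went both ways. Among the genes that build the linker between core protein and chain, 1 of 7 was limbal by the 1.5-fold rule (Xylt2, which encodes a xylosyltransferase that starts the linker, at a log2 ratio of 0.73 from 167 and 260 reads) and 1 corneal (B3galt6, which adds its second galactose, with -0.65 from 379 and 226 reads), where 27.3% and 20.5% of all genes were. With total reads B3galt6 was at -0.44 and no longer called. The median of the list was 0.33. Of the genes for sugar and sulfate donors, 0 of 9 were limbal and 3 corneal (Papss2, Impad1 and Ugdh), beside the same 27.3% and 20.5% of all genes, around a median of -0.22. With total reads Ugdh was at -0.55 and no longer called, and the list split into 4 genes above 0 and 5 below. Papss2, which encodes a synthase of the sulfate donor PAPS, had 2623 corneal and 751 limbal reads, at a log2 ratio of -1.71 (95% CI -1.83 to -1.59), and Papss1, which encodes the other synthase, had 3594 and 3341 and a log2 ratio of -0.01 (95% CI -0.08 to 0.06). Slc35b2, which encodes a PAPS transporter of the Golgi, was the highest of this list, at 0.36 (95% CI 0.22 to 0.51). These donors also serve chondroitin and keratan sulfate.

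Of the 13 core proteins that carry HS, 12 had more than 3 reads in a library, and 7 of these were limbal and 0 corneal by the 1.5-fold rule, beside 27.3% and 20.5% of all genes, with a median log2 ratio of 0.94. Past 2-fold were Col18a1 (4.85, from 25 and 675 reads), Gpc6 (3.57, from 17 and 189), the perlecan gene Hspg2 (2.07, from 510 and 2003), Sdc3 (1.64, from 221 and 643), Gpc3 (1.29, from 1517 and 3475) and Gpc4 (1.08, from 248 and 490). Sdc4 was the lowest, at -0.52 from 10618 and 6908 reads, and Gpc5 had 1 read in each library. Sdc1, with the most reads of the list, was also lower in the limbus, at -0.50 from 39634 and 26236 reads, and at -0.29 with total reads. Summed normalized reads of the list were 56141.5 for the cornea and 47961.6 for the limbus, so the sum did not follow the count of genes. Among the 8 genes of lysosomal HS degradation, Arsg was past 1.5-fold in the limbus (1.10, from 31 and 62 reads) and Ids in the cornea (-0.88, from 2906 and 1473 reads), around a median of 0.27. With total reads Naglu (0.78), Idua (0.72) and Hgsnat (0.60) were called as well, which made 4 limbal genes of 8, where 33.5% of all genes were. The blood vessel, mural cell and skeletal muscle genes given above were higher in the limbus as well, and their part in these values was not tested.

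The accession listed beside each gene symbol in the deposited table does not belong to that gene. Of 18556 named rows whose accession is in the RefSeq table, 2 (0.0108%) carried an accession of the gene they name. Symbols were used here and accessions were not.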
